A study of Mus musculus with 2 samples.

Results

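The Pi16 Dpp4 high interstitial progenitors of gonadal white adipose tissue (gWAT) were taken as the cells with at least 10 unique molecular identifiers (UMIs, each counting 1 captured transcript) of Pi16 and Dpp4 together, within a gate of mesenchymal cells. The gate held cells of both libraries with 1001 to 6999 detected genes and under 8% mitochondrial UMIs. It left out cells with 5 or more UMIs of the mesothelial genes Msln, Upk3b, Krt19, Lrrn4 and Upk1b, cells with 1% or more of their UMIs from the immunoglobulin genes Igkc, Ighm, Igha and Jchain, and cells with 3 or more UMIs of Calca and Ncam1. Of 17404 barcodes, 7723 cells passed the gate, and 713 of these were Pi16 Dpp4 high. The other 7010 cells of the gate are called the remaining cells.

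The study asked how cells that had switched on p16 differ from those that had not in the adipose tissue of old mice. All mice were 18-month-old males that carried p16-CreERT2 and R26-LSL-tdTomato and received tamoxifen intraperitoneally. Cre is expressed from p16, so the reporter marks cells in which p16 was active while tamoxifen was present, and their descendants. From gWAT, cells negative for the endothelial antigen CD31 and the leukocyte antigen CD45 were sorted into a tdTomato-positive (Tom+) and a tdTomato-negative (Tom-) population, and each gave 1 library of 10x 3′ v3.1 chemistry. The number of mice behind each library is not given in the sources used here. With 1 library per population no difference has a replicate check, so values are given without a test, and intervals are exact 95% intervals that cover counting error only.

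PI16 and DPP4 mark a fibroblast population that is known from the fibrous interstitium and the adventitia of many organs. In adipose tissue, DPP4+ cells lie in the reticular interstitium that surrounds the fat lobules and are known to be able to give rise to ICAM1+ committed preadipocytes and so to adipocytes. DPP4 (CD26) is a cell surface protease that clips short peptides such as incretins and chemokines at their N terminus, and PI16 is a secreted or membrane-anchored protein of the CAP superfamily.

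The Tom+ library held 61119807 UMIs in 5566 barcodes, and the Tom- library 96872394 UMIs in 11838. Of these, 272 Tom+ cells and 441 Tom- cells were Pi16 Dpp4 high, with 4345214 and 6188124 UMIs in sum. Their median depth was 14973 UMIs in Tom+ and 13334 in Tom-, against 13940 and 11035 in the remaining cells. The median mitochondrial share of the Pi16 Dpp4 high cells was 3.81% in Tom+ and 3.44% in Tom-. Some barcodes were listed in both libraries, 2224 in all, but only 3 were in the gate of both and 0 were Pi16 Dpp4 high in both. Of the Tom+ Pi16 Dpp4 high cells, 35 (12.9%) had a barcode that the Tom- library also listed, with a median of 632 UMIs there against 25488 in Tom+. Of the Tom- ones, 3 (0.680%) had such a barcode. The counts of genes with those barcodes left out are given in the closing section.

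The label was set beside its markers. Of the 6 given markers, Pi16 and Dpp4 chose the cells. The other 4 (Krtdap, Dact2, Efhd1 and Sbsn) were higher in the Pi16 Dpp4 high cells than in the remaining cells of both libraries. They came with the label, and Krtdap and Dact2 reached 10 CPM through the Pi16 Dpp4 high cells alone. Their direction is therefore a description and not a check of the label. The pan-progenitor gene Pdgfra was at 322 counts per 1000000 UMIs (CPM) in Tom+ and 243 CPM in Tom-, against 381 and 298 CPM in the remaining cells, and the decorin gene Dcn was at 16902 and 18112 CPM, so the cells were mesenchymal in both libraries. Cells were sorted from dissociated tissue, and their place in the interstitium was not measured.

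Of the given markers, Sbsn and Krtdap are neighbours on chromosome 7, with Dmkn between them. All lie on the plus strand within a stretch known from skin, and their products, suprabasin, dermokine and keratinocyte differentiation-associated protein, are secreted proteins first described in differentiating epidermis. In the GRCm38 (mm10) annotation Sbsn lies at chr7:30751471-30756134, Dmkn at chr7:30763756-30781063 and Krtdap at chr7:30787896-30791097. The windows before their RefSeq transcription starts are shown because these genes were higher together in the same cells. Each stretch ends at the first transcribed base of its start (RefSeq, GRCm38.p6, plus strand), and capitals mark matches to the AP-1 element TGANTCA or the TATA box TATAAA. The Dmkn record has 3 starts, of which the first and the internal one are printed.
Sbsn, chr7:30751341-30751471: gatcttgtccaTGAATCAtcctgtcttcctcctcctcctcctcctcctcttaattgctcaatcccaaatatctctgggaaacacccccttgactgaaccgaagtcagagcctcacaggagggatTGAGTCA
Dmkn, first start, chr7:30763626-30763756: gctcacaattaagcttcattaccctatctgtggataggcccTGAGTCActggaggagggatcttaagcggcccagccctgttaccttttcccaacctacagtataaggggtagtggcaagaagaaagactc
Dmkn, internal start, chr7:30776275-30776405: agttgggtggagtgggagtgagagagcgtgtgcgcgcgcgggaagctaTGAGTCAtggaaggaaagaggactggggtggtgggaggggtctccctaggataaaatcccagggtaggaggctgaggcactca
Krtdap, chr7:30787775-30787905: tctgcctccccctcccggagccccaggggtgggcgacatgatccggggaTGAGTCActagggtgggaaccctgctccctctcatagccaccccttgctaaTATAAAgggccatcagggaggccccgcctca
TGANTCA began 119 and 6 bases before the Sbsn start, 89 bases before the first Dmkn start, 82 bases before the internal Dmkn start and 81 bases before the Krtdap start. TATAAA was found in the Krtdap window alone, 30 bases before its start. Windows from 250 bases before to 50 bases after each start were searched on both strands for these motifs and for CCAAT, and no match overlapped another. Over all 32817 such windows of the mouse annotation, TGANTCA stood in 7.81%, TATAAA in 13.6% and CCAAT in 37.4%; the last was matched in the Krtdap window only, 31 bases after the start. A match describes the sequence and shows no binding.

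Pi16 and Dpp4 chose the cells, and their levels describe that choice. Pi16 gave 80.5% of the Pi16 and Dpp4 UMIs of the chosen Tom+ cells and 86.1% of those of the Tom- cells. A Pi16 Dpp4 high cell had 0 to 205 Pi16 UMIs in Tom+ (median 13) and 2 to 283 in Tom- (median 17). For Dpp4 the range was 0 to 18 UMIs (median 4) in Tom+ and 0 to 15 (median 3) in Tom-. Thus 14 Tom+ and 57 Tom- cells entered through Pi16 alone, and 3 Tom+ cells and 0 Tom- cells through Dpp4 alone. At the other end, 1688 Tom+ cells (59.9% of the remaining cells) and 2738 Tom- cells (65.3%) had no UMI of either gene.

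**Figure D1:**
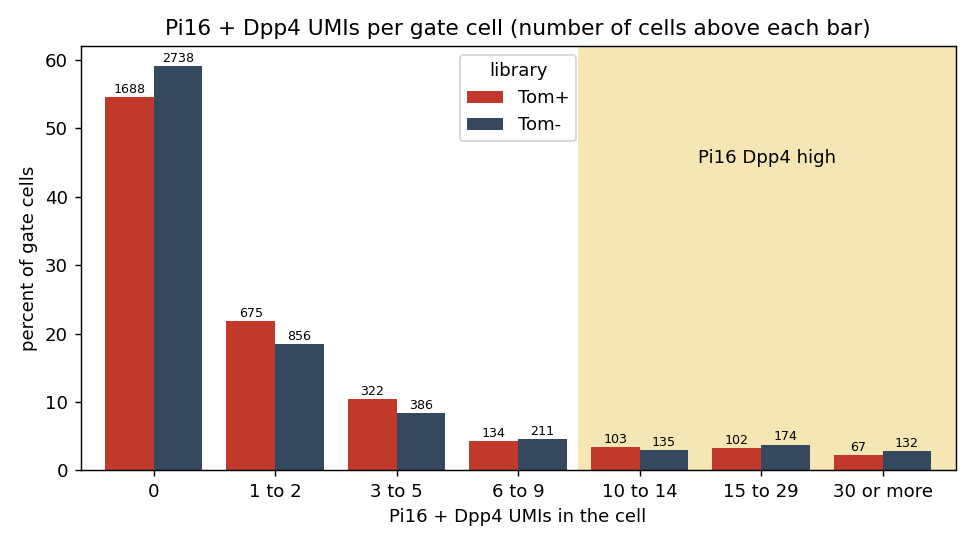
Percent of the gate cells of each library (y axis) in bins of Pi16 plus Dpp4 UMIs per cell (x axis), with the number of cells above each bar and the Pi16 Dpp4 high bins shaded. In both libraries the bin at 0 is the tallest (54.6% and 59.1%), the bin of 30 or more UMIs holds 2.17% and 2.85%, and there is no gap at the threshold of 10.

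The threshold cut a continuous distribution. There were 21 Tom+ and 43 Tom- cells at 9 UMIs, just outside, and 23 and 37 cells at 10 UMIs, just inside. Cells with 8 or 9 UMIs had 84.6 CPM of Efhd1 in Tom+ and 132 CPM in Tom-, and cells with 10 or 11 UMIs had 126 and 119 CPM. Sbsn was at 109 CPM just outside and 79.0 CPM just inside in Tom+, and at 197 and 196 CPM in Tom-. Dact2 was at 19.6 CPM just outside and 27.5 CPM just inside in Tom+, and at 18.1 and 39.6 CPM in Tom-. Of these genes, Dact2 was thus higher just inside in both libraries, and Efhd1 and Sbsn were not.

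Pi16 Dpp4 high cells made up 8.80% (7.82 to 9.85%) of the gated Tom+ cells and 9.52% (8.69 to 10.4%) of the gated Tom- cells. A fixed number of UMIs selects more cells at higher depth. When every cell was thinned to 7500 UMIs, 132 of 2833 Tom+ cells (4.66%, 3.91 to 5.50%) and 270 of 4026 Tom- cells (6.71%, 5.95 to 7.52%) reached the threshold, and thinning left out 258 and 606 shallower cells, of which 8 and 15 were Pi16 Dpp4 high. The intervals overlapped before thinning and no longer did after it. The sort on tdTomato and the single library per population mean that a difference in share between the populations and a difference between the libraries cannot be told apart.

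For genes other than Pi16 and Dpp4, the UMIs of each library were summed over the Pi16 Dpp4 high cells and over the remaining cells and scaled to CPM. Of 8092 genes that averaged at least 10 CPM over the 4 sums, 206 (2.55%) were at least 2-fold higher in the Pi16 Dpp4 high cells in both libraries and 197 (2.43%) at least 2-fold lower. The median log2 ratio over all 8092 genes was -0.01 in Tom+ and 0.02 in Tom-. All of these ratios compare cells that were chosen from the same counts, so they describe the population and were not tested.

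**Figure D2:**
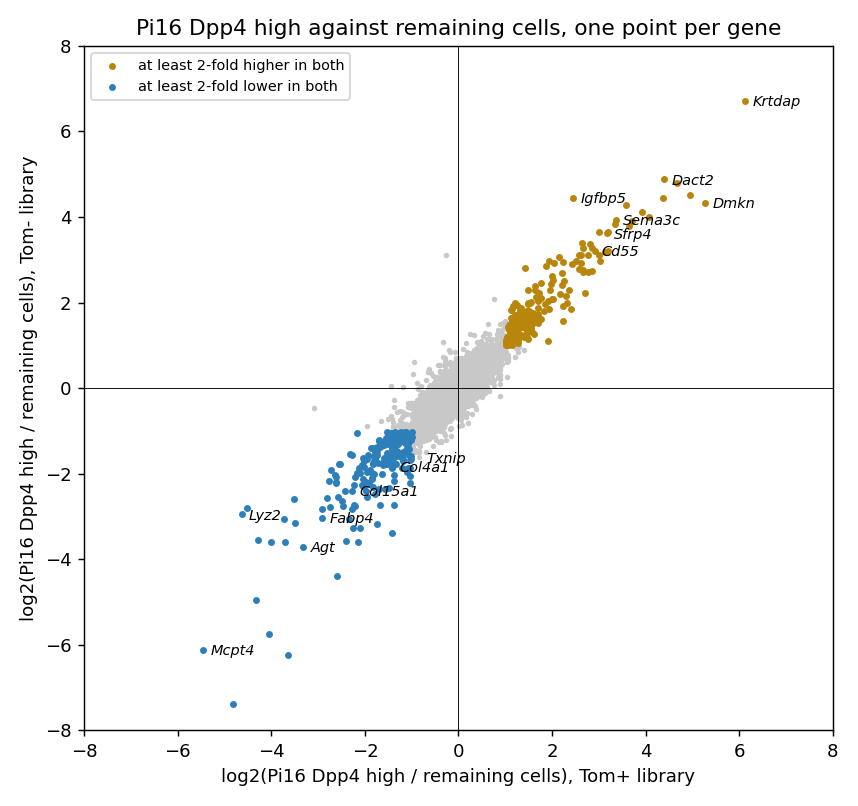
Log2 ratio of the Pi16 Dpp4 high cells to the remaining cells in Tom+ (x axis) and Tom- (y axis), 1 point per gene that averaged at least 10 CPM; Pi16, Dpp4 and C1qb are not drawn. Gold points are genes at least 2-fold higher in both libraries and blue points genes at least 2-fold lower, and both groups lie along the diagonal.

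Krtdap had the highest ratio of the genes that averaged at least 50 CPM over the Pi16 Dpp4 high cells of the 2 libraries. It was at 46.3 CPM in the Tom+ cells and 115 CPM in the Tom- cells, against 0.661 and 1.10 CPM in the remaining cells. The log2 ratio was 6.13 (5.55 to 6.77) in Tom+ and 6.72 (6.31 to 7.15) in Tom-. This rests on few transcripts, 201 Krtdap UMIs in the Tom+ cells and 714 in the Tom- cells, against 27 and 53 in the remaining cells. Dmkn was at 99.4 CPM (Tom+) and 190 CPM (Tom-), against 2.57 and 9.44 CPM (log2 ratios of 5.27 and 4.33). Sbsn was at 308 and 519 CPM, against 24.6 and 37.5 CPM (3.65 and 3.79). Of the nearby genes, Tmem147 had log2 ratios of 0.08 and 0.09, and Ffar1, Ffar2, Ffar3, Gapdhs and Atp4a were at or near 0. The antisense RNA Gm26935, next to Sbsn, had log2 ratios of 0.68 and 1.08 from 8 and 13 UMIs in the Pi16 Dpp4 high cells, and Tmem147os had 1.06 and 0.64 from 4 UMIs in each library.

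Single cells were compared at an equal depth of 7500 UMIs, where a share of cells with a UMI can be read. Krtdap was seen in 13.6% of the Tom+ and 23.9% of the Tom- Pi16 Dpp4 high cells (18.0% and 26.8% before thinning). Among the remaining cells 0.234% and 0.444% had a Krtdap UMI. Mesothelial-rich cells, which the gate leaves out (at least 20 UMIs of the mesothelial genes, 245 Tom+ and 1796 Tom- cells), served as a cell type that should lack it, and there the share was 0.823% and 0.802%. Those cells were deeper in Tom+, with a median of 18847 UMIs before thinning.

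Krtdap was thus found in a minority of the Pi16 Dpp4 high cells, and those cells mostly held its neighbours too. Of the 36 thinned Tom+ cells with a Krtdap UMI, 97.2% had a Sbsn UMI and 58.3% a Dmkn UMI, against 50.4% and 14.04% of the cells without Krtdap. Of the 102 such Tom- cells, 95.1% had Sbsn and 73.5% Dmkn, against 66.4% and 15.7%. Efhd1, on chromosome 1, was in 97.2% against 66.7% of these cells in Tom+ and in 87.3% against 62.7% in Tom-. Any of the 3 locus genes was seen in 156 (59.1%) of the thinned Tom+ and 324 (76.1%) of the thinned Tom- Pi16 Dpp4 high cells.

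Of the 3 genes, Krtdap was lower in mesothelial-rich cells than in the Pi16 Dpp4 high cells and Dmkn was higher there, a comparison chosen after its values were seen. Mesothelial-rich cells held Dmkn at 522 CPM (Tom+) and 523 CPM (Tom-), Sbsn at 284 and 307 CPM, and Krtdap at 1.71 and 1.74 CPM. They also held Dpp4, at 278 and 268 CPM, with Pi16 at 22.4 and 16.6 CPM. Msln, the mesothelial surface protein mesothelin, was at 1.84 and 4.202 CPM in the Pi16 Dpp4 high cells, where the gate limits it.

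The given markers Efhd1 and Dact2 had similar ratios to the remaining cells in both libraries. Efhd1, a calcium-binding protein of mitochondria, was at 234 CPM in the Tom+ Pi16 Dpp4 high cells and 249 CPM in the Tom- ones, against 13.9 and 15.6 CPM in the remaining cells (log2 ratios of 4.08 and 4.00). Dact2, which binds Dishevelled in the Wnt pathway, was at 93.2 and 118 CPM, against 4.43 and 4.02 CPM (4.40 and 4.88). At equal depth, Efhd1 was seen in 70.8% of the Tom+ and 68.5% of the Tom- Pi16 Dpp4 high cells, against 7.40% and 6.47% of the remaining cells and 1.65% and 1.26% of mesothelial-rich cells. Before thinning the shares in the Pi16 Dpp4 high cells were 84.2% and 76.9%. Sbsn was seen in 56.8% and 73.2% of the Pi16 Dpp4 high cells at equal depth, against 12.8% and 16.2% of the remaining cells, but in 74.1% and 75.8% of mesothelial-rich cells.

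The next genes by ratio included Sema3c, Limch1, Nov, Mgll and Gm15675. Sema3c, a secreted class 3 semaphorin, was at 608 CPM (Tom+) and 568 CPM (Tom-), against 58.9 and 37.1 CPM (log2 ratios of 3.37 and 3.94). Limch1, an actin-binding activator of nonmuscle myosin, was at 131 and 132 CPM, against 13.0 and 9.31 CPM. Nov, the matricellular protein CCN3, was at 124 and 184 CPM, against 13.4 and 14.8 CPM. Each of these was several-fold above the remaining cells of its own library. Mgll, the lipase that splits monoacylglycerols, was at 66.0 and 64.0 CPM, against 7.59 and 6.996 CPM. Gm15675, a long noncoding RNA, was at 103 and 112 CPM, against 7.93 and 7.49 CPM, but it ends 1836 bases from Cd55 on the same strand, and reads of the pair may not be told apart. Cd55, the complement decay-accelerating factor, was at 959 and 1070 CPM, against 128 and 116 CPM.

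A list of 25 genes known from DPP4+ interstitial progenitors was counted as a group. Of the 24 that reached 10 CPM, 24 were higher in both libraries (of all 8092 genes, 39% were higher in both and 37.9% lower in both) and 19 at least 2-fold higher (2.55% of all genes), with median log2 ratios of 1.46 in Tom+ and 1.69 in Tom-. The list was drawn up with earlier results of these data known and is not independent evidence. Bmp7, among the 19, also reached 10 CPM through the Pi16 Dpp4 high cells alone. Wnt2, a ligand often named for these cells, was the gene that did not reach 10 CPM, at 2.07 CPM (Tom+) and 2.91 CPM (Tom-) against 0.122 and 0.476 CPM. Fn1, the matrix protein fibronectin, was at 4695 and 3582 CPM, against 1736 and 1106 CPM. Anxa3, an annexin, was at 1025 and 1241 CPM, against 263 and 255 CPM. Ackr3, a decoy receptor for CXCL12, was at 1495 and 1786 CPM, against 398 and 438 CPM. Ly6a (Sca-1), a widespread progenitor antigen, was at 2162 and 2583 CPM, against 1258 and 1308 CPM, a difference of less than 2-fold.

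Among 19 of 22 surface antigens that reached 10 CPM, 6 were at least 2-fold higher in both libraries (Cd34, Ly6c1, Thy1, Cd55, Cd248 and Procr) and 1 at least 2-fold lower (Vcam1). Cd34 was at 742 CPM (Tom+) and 737 CPM (Tom-), against 282 and 247 CPM. Thy1 (CD90) was at 65.6 and 96.0 CPM, against 20.02 and 22.7 CPM. Vcam1, an adhesion molecule that binds leukocyte integrins, was at 73.6 and 96.3 CPM, against 197 and 260 CPM. The median log2 ratio of the 19 antigens was 0.02 in Tom+ and 0.01 in Tom-, and over all genes 2.55% were at least 2-fold higher and 2.43% lower.

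Wnt signals are known to hold back adipogenesis, and several of the genes highest in these cells act in that pathway. Of 16 of 31 listed Wnt pathway genes that reached 10 CPM, 6 were at least 2-fold higher in both libraries and 0 at least 2-fold lower (2.55% and 2.43% over all genes), with median log2 ratios of 0.22 and 0.28. The ligand Wnt10b was at 27.8 CPM (Tom+) and 34.7 CPM (Tom-), against 1.35 and 1.59 CPM (log2 ratios of 4.37 and 4.45). At equal depth it was seen in 17.8% and 19.0% of the Pi16 Dpp4 high cells, against 0.856% and 0.778% of the remaining cells. The ligand Wnt11 was at 68.1 and 74.0 CPM, against 31.9 and 29.8 CPM. Antagonists and modulators were among the 6 as well. The count partly restates the choice, since Dact2 is a given marker and Wnt10b reached 10 CPM through the Pi16 Dpp4 high cells alone. Sfrp4, a secreted Wnt-binding protein, was at 160 and 278 CPM, against 17.8 and 22.5 CPM (3.17 and 3.62). Its relative Sfrp2 was at 433 and 489 CPM, against 214 and 225 CPM. Dact1 was at 360 and 340 CPM, against 88.7 and 80.3 CPM. Dact3, the third of that family, was lower, at 10.4 and 16.6 CPM against 20.4 and 27.6 CPM.

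The bone morphogenetic protein (BMP) pathway gave members in both directions. Of 18 of 25 listed genes that reached 10 CPM, 4 were at least 2-fold higher (Bmp2, Bmp6, Bmp7 and Chrd) and 2 at least 2-fold lower (Gdf10 and Fst), beside 2.55% and 2.43% over all genes, with median log2 ratios of -0.01 and 0.01. The ligand Bmp7 was at 33.1 CPM (Tom+) and 35.2 CPM (Tom-), against 1.08 and 1.53 CPM (4.94 and 4.52). It was seen in 18.6% and 22.8% of the Pi16 Dpp4 high cells at equal depth, against 0.623% and 0.889% of the remaining cells, and it reached 10 CPM through the Pi16 Dpp4 high cells alone. The ligand Bmp6 was at 57.8 and 69.8 CPM, against 7.24 and 8.05 CPM. Bmp6 also reached 10 CPM through the Pi16 Dpp4 high cells alone, so the count of higher genes partly restates the choice. Chrd, the secreted BMP antagonist chordin, was at 23.9 and 27.0 CPM, against 10.4 and 12.6 CPM. The antagonist Fst (follistatin), in contrast, was at 177 and 136 CPM, against 411 and 312 CPM. Gdf10, a BMP family ligand, was at 62.6 and 63.0 CPM, against 224 and 314 CPM.

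In the TGF-β and activin list, 17 of 21 genes reached 10 CPM, 1 was at least 2-fold higher in both libraries and 2 at least 2-fold lower (2.55% and 2.43% over all genes). The higher one was the receptor Tgfbr2, at 369 CPM (Tom+) and 309 CPM (Tom-), against 150 and 128 CPM. The ligand Tgfb1 was lower, at 11.5 and 10.3 CPM against 25.7 and 23.3 CPM. Tgfbi, a matrix protein induced by TGF-β in many cells, was at 57.5 and 51.7 CPM, against 193 and 152 CPM. The median log2 ratio of the list was 0.03 and 0.12.

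Semaphorins and other guidance cues gave 6 genes at least 2-fold higher (Sema3c, Sema3d, Sema3e, Plxdc2, Robo1 and Ntn4) and 3 at least 2-fold lower (Sema5a, Nrp1 and Plxnd1), of 18 of 26 that reached 10 CPM (2.55% and 2.43% over all genes). Sema3e was at 80.1 CPM (Tom+) and 65.9 CPM (Tom-), against 9.98 and 5.24 CPM (3.00 and 3.65). Plxnd1, the receptor of Sema3e, was at 8.28 and 7.27 CPM, against 29.02 and 23.6 CPM. Nrp1, a neuropilin co-receptor of class 3 semaphorins, was at 101 and 76.9 CPM, against 213 and 190 CPM. The ligands Sema3c, Sema3d and Sema3e were thus higher in the Pi16 Dpp4 high cells, and these receptors lower. Sema3e reached 10 CPM through the Pi16 Dpp4 high cells alone and Plxnd1 through the remaining cells alone, so the counts partly restate the choice. The median log2 ratios of the list were 0.37 and 0.24.

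Insulin-like growth factor (IGF) genes were found in both directions, and the binding proteins did not go one way. Of 8 of 10 genes that reached 10 CPM, Igfbp5 and Igfbp6 were at least 2-fold higher in both libraries and Igf1 at least 2-fold lower (2.55% and 2.43% over all genes). Igfbp5 was at 614 CPM (Tom+) and 733 CPM (Tom-), against 112 and 33.5 CPM. Igfbp6 was at 1562 and 1836 CPM, against 595 and 794 CPM. The binding protein gene Igfbp7 was lower, at 990 and 1331 CPM, against 1954 and 2918 CPM. The growth factor Igf1 was at 122 and 186 CPM, against 521 and 732 CPM. Igfbp5 had a much larger ratio in Tom- (log2 4.45) than in Tom+ (2.46), with its level in the remaining cells differing more between the libraries than its level in the Pi16 Dpp4 high cells.

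Genes of the extracellular matrix were counted by class, beside 2.55% higher and 2.43% lower over all genes. Of 6 of 10 hyaluronan genes that reached 10 CPM, the synthase Has2 was at least 2-fold higher, at 128 CPM (Tom+) and 168 CPM (Tom-) against 38.8 and 35.9 CPM, and 0 were at least 2-fold lower. Of 13 fibrillar and other interstitial collagens, Col14a1 alone was at least 2-fold higher, at 818 and 730 CPM against 207 and 135 CPM. The main fibrillar chain Col1a1 was at 1761 and 1494 CPM, against 3138 and 2429 CPM, and the median of the list was -0.69 and -0.55. Basement membrane genes leaned the same way. Of 15 of 18, the laminin chain Lama4 was at least 2-fold higher and Col4a1, Col4a2, Col4a4 and Col15a1 were at least 2-fold lower. Col4a1 was at 546 and 277 CPM, against 1464 and 995 CPM.

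Microfibril genes went the other way from the collagens in part. Of 21 of 22, 4 were at least 2-fold higher (Fbn1, Emilin2, Mfap5 and Efemp1) and 1 at least 2-fold lower (Fbln7), beside 2.55% and 2.43% over all genes, with medians of 0.12 and 0.18. Fbn1, the microfibril protein fibrillin-1, was at 2020 CPM (Tom+) and 1815 CPM (Tom-), against 833 and 562 CPM. Mfap5, which binds fibrillin, was at 1818 and 2003 CPM, against 705 and 736 CPM. Small leucine-rich proteoglycans had 0 of 10 genes at least 2-fold higher and 1, Fmod, at least 2-fold lower. Of 24 of 25 matrix proteases and their inhibitors or enhancers, Pcolce2, an enhancer of procollagen processing, was at least 2-fold higher and Mmp3, Mmp11 and Adamts9 were at least 2-fold lower. Adamts16, a metalloprotease outside the lists whose name was chosen after its values were seen, was at 48.1 and 49.8 CPM, against 1.88 and 1.78 CPM (4.67 and 4.81).

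Genes of committed preadipocytes were lower in the Pi16 Dpp4 high cells. Of 23 of 26 that reached 10 CPM, 0 were at least 2-fold higher and 17 at least 2-fold lower in both libraries (2.55% and 2.43% over all genes), with median log2 ratios of -1.61 in Tom+ and -1.84 in Tom-. Among the 17, Pparg, Cd36 and Cxcl14 reached 10 CPM through the remaining cells alone, so the count partly restates the choice. Gpc3 and Bst2 were the 2 that were higher in both. Icam1, the antigen used to sort committed preadipocytes, was at 104 and 143 CPM, against 207 and 249 CPM. Fabp4, the fatty acid carrier of the adipocyte lineage, was at 177 and 138 CPM, against 1330 and 1123 CPM (-2.91 and -3.03). Lpl, lipoprotein lipase, was at 328 and 303 CPM, against 1004 and 1018 CPM. The adipogenic regulator Pparg was at 5.06 and 2.10 CPM, against 22.3 and 25.5 CPM (-2.14 and -3.60).

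The list of adipogenic and lipid genes overlaps with that list. Of 19 of 26 that reached 10 CPM, 8 were at least 2-fold lower (Pparg, Cebpa, Fabp4, Fabp5, Lpl, Cd36, Plin2 and G0s2), all of them also on the preadipocyte list, and 1, Mgll, which is not, was at least 2-fold higher, beside 2.43% lower and 2.55% higher over all genes. Plin2, which coats lipid droplets, was at 75.7 CPM (Tom+) and 70.3 CPM (Tom-), against 229 and 219 CPM. Cd36, a fatty acid transporter, gave 15 UMIs in the Tom+ cells and 1 UMI in the Tom- cells. Pparg and Cd36, among the 8, reached 10 CPM through the remaining cells alone, and Mgll through the Pi16 Dpp4 high cells alone. Both counts thus partly restate the choice. Of 7 of 9 genes of adipogenesis-regulatory cells, 0 were at least 2-fold higher and 2 at least 2-fold lower (Fmo2 and Gdf10). F3, the coagulation initiator tissue factor that marks those cells, was at 211 and 212 CPM, against 252 and 336 CPM.

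The lowest genes by ratio, among those that averaged at least 50 CPM over the remaining cells of both libraries, included genes of adipogenic progenitors and of leukocytes. Agt, angiotensinogen, was at 27.2 CPM (Tom+) and 20.2 CPM (Tom-), against 271 and 264 CPM. Trf, the iron carrier transferrin, was at 141 and 222 CPM, against 840 and 1298 CPM. Mdk, the growth factor midkine, was at 62.1 and 29.6 CPM, against 336 and 156 CPM. Olfm2, Ctsc, Cxcl14 and Col15a1 were also among the 12, with log2 ratios from -3.73 to -2.28 over both libraries. The mast cell protease Mcpt4 gave 7 and 3 UMIs in the Pi16 Dpp4 high cells, with log2 ratios of -5.45 (-6.77 to -4.41) and -6.12 (-8.40 to -4.57).

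Cells with transcripts of other types were few among the remaining cells. There, 76 Tom+ cells (2.70%) and 76 Tom- cells (1.81%) held at least 10 UMIs of 16 leukocyte, mast cell, mural and endothelial genes, and 0 Pi16 Dpp4 high cells did. With those cells left out, a setting chosen after seeing the data that by its choice of cells lowers these genes in the remaining cells, the log2 ratio of Mcpt4 was -0.72 in Tom+ and -0.65 in Tom-, that of Cd74, the invariant chain of MHC class II, was -0.60 and -0.37, and that of the lysozyme gene Lyz2 was 0.062 and -0.024. With all remaining cells, Cd74 had been at -4.29 and -3.55 and Lyz2 at -4.64 and -2.95. The B cell chemoattractant Cxcl13 moved from -3.72 to -2.17 in Tom+ and stayed at -3.59 in Tom-. Pparg was at -2.14 and -3.62, so it stayed as low as with all remaining cells.

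Of 27 of 30 transcription factors of mesenchymal cells, 3 were at least 2-fold higher in both libraries (Creb5, Tcf21 and Ebf2), against 2.55% of all genes, and 0 at least 2-fold lower, with medians of 0.11 and 0.01. Creb5, a factor of the CREB family, was at 608 CPM (Tom+) and 526 CPM (Tom-), against 291 and 194 CPM. Tcf21 was at 307 and 391 CPM, against 141 and 180 CPM, and Ebf2, known from brown and beige adipocyte precursors, was at 439 and 377 CPM, against 218 and 178 CPM. Of 23 immediate early genes, which dissociation is known to induce, 0 were at least 2-fold higher or lower in both libraries, with medians of -0.21 and -0.50. By any amount, 17 of the 23 were lower in both libraries and 4 higher (37.9% and 39% of all genes were). Of 83 of 86 ribosomal protein genes, 79 were higher by any amount in both libraries (39% of all genes were), with medians of 0.24 and 0.31, a small and even shift.

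In the other lists 1 to 5 genes were at least 2-fold different, beside 2.55% higher and 2.43% lower over all genes. Of 17 of 20 chemokine and cytokine genes, Ackr3 was at least 2-fold higher and Cxcl12, Cxcl13, Cxcl14 and Cxcl16 at least 2-fold lower. Cxcl13 and Cxcl14 reached 10 CPM through the remaining cells alone, so that count partly restates the choice. Of 10 of 15 complement genes, Cd55 was at least 2-fold higher and C2 at least 2-fold lower. Of 8 of 13 retinoid genes, the retinoic acid enzyme Aldh1a2 was at least 2-fold lower. Of 13 of 15 senescence genes, Igfbp5 was at least 2-fold higher and Gdf15, a stress-induced cytokine, at least 2-fold lower. Of 18 proliferation genes only 4 reached 10 CPM, and 1 of these, Stmn1, was at least 2-fold lower.

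**Figure D3:**
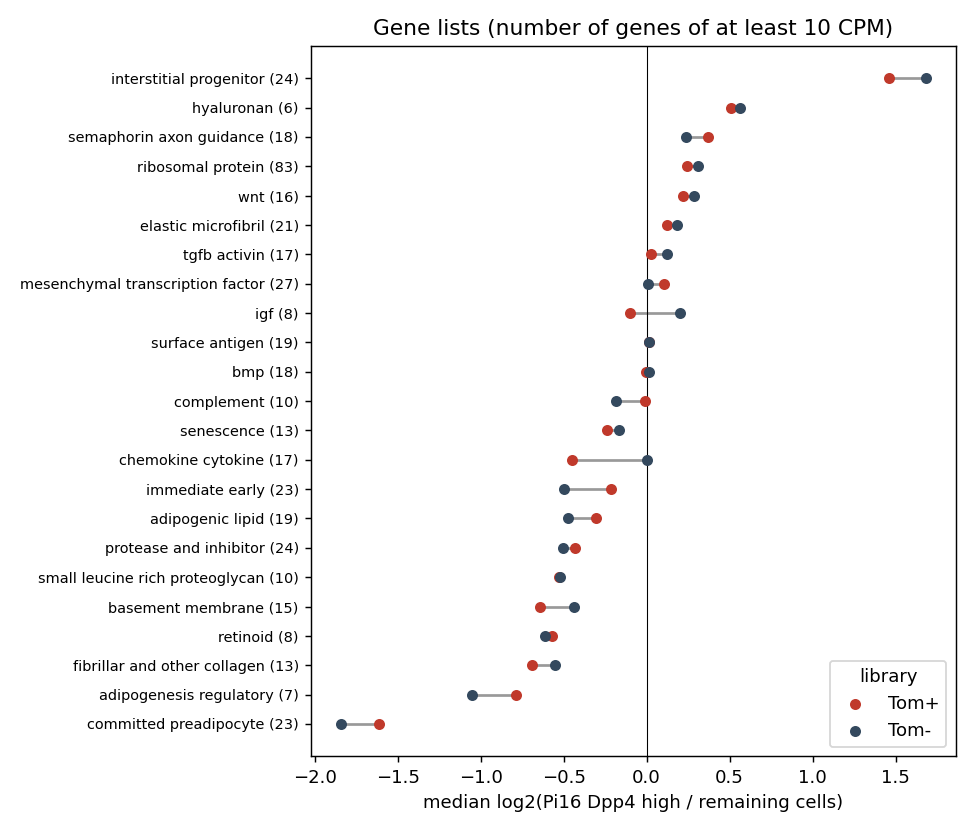
Median log2 ratio of the Pi16 Dpp4 high cells to the remaining cells (x axis) for the gene lists with at least 6 genes of at least 10 CPM (y axis, that number in brackets), without the given markers and the markers of other cell types, 1 point per library. Of the lists drawn, the interstitial progenitor list has the highest medians (1.46 and 1.69) and the committed preadipocyte list the lowest (-1.61 and -1.84), and in most lists the libraries lie close together.

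The genes at least 2-fold higher were looked at for neighbours on the chromosome, after the Sbsn, Dmkn and Krtdap group had been seen. Of 206 such genes, 21 (10.2%) had another of them as the next examined gene within 100 kb, against 2.45% over all examined genes with a position. The 21 include Sbsn, Dmkn and Krtdap, which prompted the look. Of the paired genes whose levels are given here, Krtdap, Dmkn, Gm15675, Duox1 and Duoxa1 reached 10 CPM through the Pi16 Dpp4 high cells alone. The share thus partly restates the choice and is a description. The 11 pairs included Duoxa1 and Duox1, a dual oxidase and the factor that matures it, which lie 1942 bases apart. Duox1 was at 27.4 CPM (Tom+) and 18.6 CPM (Tom-), against 4.38 and 1.78 CPM, and Duoxa1 at 29.7 and 26.2 CPM, against 5.24 and 3.31 CPM. Epdr1 and Sfrp4 lie 3177 bases apart. Ackr1 and Cadm3 overlap, so their reads may not be told apart. Strand and shared reads were not checked for the other pairs.

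The Pi16 Dpp4 high cells were then split by their Pi16 and Dpp4 UMIs, the values that chose them, so these levels are a description. Median depth in the bins of 10 to 14, 15 to 29 and 30 or more UMIs was 14849, 14973 and 15481 UMIs in Tom+ and 12632, 13435 and 13779 in Tom-. Krtdap was at 5.95, 29.9 and 129 CPM in the Tom+ cells of these bins, and at 17.9, 89.9 and 237 CPM in Tom- cells. Igfbp5 was at 218, 480 and 1388 CPM in the same bins of Tom+ and at 233, 527 and 1448 CPM in Tom-. Efhd1 was at 154, 233 and 356 CPM in Tom+ and at 151, 226 and 369 CPM in Tom-. All 3 were higher in each successive bin of both libraries. Efemp1, a fibulin of the matrix, was at 845, 1006 and 1053 CPM in Tom+ and at 1214, 1335 and 1375 CPM in Tom-, a much smaller range. Fabp4 went the opposite way, from 1589 CPM in Tom+ cells without a Pi16 or Dpp4 UMI to 99.6 CPM in those with 30 or more, and from 1420 to 70.9 CPM in Tom-.

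**Figure D4:**
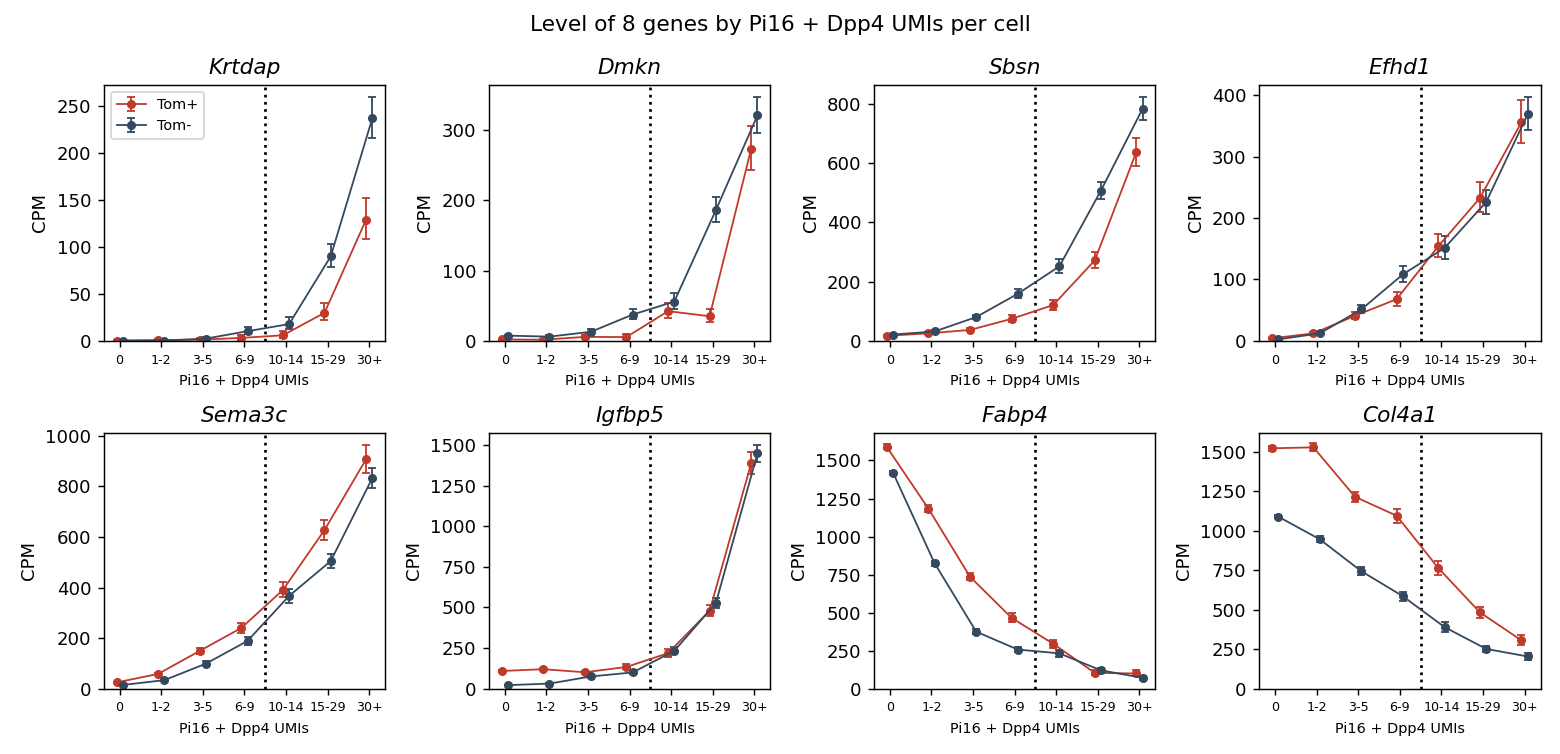
CPM (y axis) of 8 genes by bin of Pi16 plus Dpp4 UMIs per cell (x axis) in Tom+ and Tom-, with exact Poisson 95% intervals and a dotted line at the threshold of 10. Krtdap reaches 129 and 237 CPM in the bin of 30 or more UMIs, and Fabp4 falls to 99.6 and 70.9 CPM there, with no step at the threshold.

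The cells were also split by Dpp4, which is among the genes that chose them, so the split is a description. Tom+ cells with 0 or 1 Dpp4 UMI (44 cells) and with 5 or more (129 cells) had 1274 and 1284 CPM of Pi16, and the Tom- cells (103 and 167) had 1681 and 1834 CPM. Sema3c was at 305 CPM in the Tom+ cells low in Dpp4 and 719 CPM in those high in it, and at 250.2 and 819 CPM in Tom-. Efhd1 was at 118 and 275 CPM in Tom+, and at 131 and 327 CPM in Tom-. Both were thus higher in the cells high in Dpp4, whose depth was also higher. Krtdap followed Dpp4 in Tom+, at 6.67 (from 4 UMIs) and 58.2 CPM, but not in Tom-, at 124 and 131 CPM. Sfrp4 was lower in the Tom+ cells high in Dpp4, at 210 and 134 CPM, but higher in the Tom- ones, at 169 and 318 CPM. tdTomato was at 305 and 54.2 CPM in Tom+ (from 183 and 121 UMIs) and at 12.7 and 14.4 CPM in Tom-. Of the tdTomato UMIs of all Tom+ Pi16 Dpp4 high cells, 5 cells held 47.2%, so a few cells can move these levels. Median depth was 13429 and 15914 UMIs in these Tom+ cells and 11883 and 14199 in the Tom- cells, and its part was not tested.

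Neighbourhoods in expression space were read without Pi16, Dpp4 and tdTomato, from 30 principal components of 2000 variable genes. On average, 62.0% of the 20 nearest neighbours of a Tom+ Pi16 Dpp4 high cell and 62.6% of those of a Tom- one were Pi16 Dpp4 high too. For remaining cells with 3 to 9 UMIs of the 2 genes the share was 17.7% and 19.5%, and for those with 0 to 2 it was 1.60% and 1.24%. At least 10 of the 20 neighbours were Pi16 Dpp4 high for 186 Tom+ (68.4%) and 307 Tom- (69.6%) of the Pi16 Dpp4 high cells, and for 59 (12.9%) and 91 (15.2%) of the remaining cells with 3 to 9 UMIs. The rest of the transcriptome thus grouped most, not all, of the chosen cells together, along with some cells below the threshold.

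Within the Pi16 Dpp4 high cells, Tom+ was compared with Tom-. The reporter itself was read first: tdTomato was at 135 CPM in the Tom+ and 11.8 CPM in the Tom- cells, a log2 ratio of 3.52 (3.16 to 3.89), against 3.51 in the remaining cells. A tdTomato UMI was seen in 69 Tom+ cells (25.4%) and 64 Tom- cells (14.5%), and at equal depth in 14.8% and 8.45%. Of the 587 tdTomato UMIs in the Tom+ cells, 47.2% came from 5 cells, the highest with 58. In the Tom- cells, which were sorted as negative, there were 73 UMIs with a maximum of 4 in a cell. Most Tom+ Pi16 Dpp4 high cells therefore had no reporter transcript at this depth, and the labels come from the sort.

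Cdkn2a, the gene of p16, was too sparse to compare. It gave 16 UMIs in 7 of the 272 Tom+ cells and 50 UMIs in 12 of the 441 Tom- cells, and 5 cells held 87.5% and 82.0% of them.

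Of the 8092 genes, 462 (5.71%) were at least 1.5-fold higher and 248 (3.06%) at least 1.5-fold lower in Tom+ than in Tom- Pi16 Dpp4 high cells. In the remaining cells 421 (5.2%) and 186 (2.3%) were. With size factors from the median of ratios in place of CPM, the counts in the Pi16 Dpp4 high cells were 246 higher and 366 lower, so which direction had more genes depended on the scaling. The median log2 ratio of all genes was 0.09 by CPM. Of the 462 higher genes, 177 were higher in the remaining cells too (38.3% of these and 42.0% of the 421), and of the 248 lower genes, 132 were lower there (53.2% and 71.0%). The libraries differ in sort, depth and preparation together, and these cannot be told apart from p16 history.

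After tdTomato, the highest ratios were those of the immunoglobulin transcripts Igkc and Ighm. Igkc was at 500 CPM (Tom+) and 155 CPM (Tom-) (log2 1.69), with a ratio of 1.55 in the remaining cells, and Ighm was at 131 and 44.3 CPM. Txnip, a redox regulator that is induced by glucose, was at 295 and 115 CPM (1.36, and 0.59 in the remaining cells). Angptl4, an inhibitor of lipoprotein lipase, was at 171 and 78.2 CPM (1.13 and 0.53). Txnip and Angptl4 thus differed in the same direction in both cell groups, by more in the Pi16 Dpp4 high cells. Col4a1 was at 546 and 277 CPM (0.98), Col5a3 at 213 and 102 CPM (1.06), and Pdgfrb, the PDGF receptor of mural cells and fibroblasts, at 111 and 57.2 CPM (0.95). Ggt5 and Rufy3 completed the 10 highest, with log2 ratios of 1.14 and 1.11.

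The lowest ratios were led by chemokines. Ccl2, the monocyte chemoattractant, was at 681 CPM (Tom+) and 2462 CPM (Tom-) Pi16 Dpp4 high cells, a log2 ratio of -1.85 (-1.91 to -1.80), against -0.80 in the remaining cells, and it was -1.14 when every cell was thinned and the cells were chosen again on the thinned counts. Of the Ccl2 UMIs, 5 cells held 35.8% in Tom+ and 10.7% in Tom-. A Ccl2 UMI was seen in 45.2% of the Tom+ and 71.4% of the Tom- Pi16 Dpp4 high cells. The related gene Ccl7 was at 521 and 1393 CPM (-1.42). The neutrophil chemoattractant Cxcl1 was at 2128 and 5276 CPM (-1.31, and -1.33 in the remaining cells). The UMIs of Cxcl2 (-1.79) and Cxcl10 (-1.39) lay in few cells, since 5 cells held 71.5% and 72.3% of them in Tom+ and 48.7% and 44.3% in Tom-. Cxcl2 was at 0.11 when every cell was thinned and the cells were chosen again on the thinned counts. Of 17 chemokine and cytokine genes, 9 were at least 1.5-fold lower and 1 higher in Tom+ Pi16 Dpp4 high cells (11 and 1 in the remaining cells), beside 3.06% lower and 5.71% higher over all genes (2.3% and 5.2% in the remaining cells), with a median log2 ratio of -0.84 (-0.93 in the remaining cells). The median of the list was thus below 0 in both groups of cells.

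The other genes of the 10 lowest were Nptx2, Fosl1, Pim3, Iigp1 and Krtdap. Nptx2, a secreted pentraxin, was at 39.6 CPM (Tom+) and 117 CPM (Tom-) (-1.56), and Fosl1, a subunit of AP-1, at 38.4 and 107 CPM (-1.47). Pim3, a kinase, was at 48.6 and 122 CPM, and Iigp1, an interferon-induced GTPase, at 39.4 and 98.4 CPM. Krtdap had a log2 ratio of -1.32 (-1.55 to -1.09), and it was lower in Tom+ in each of the 3 bins of Pi16 and Dpp4 UMIs given above.

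**Figure D5:**
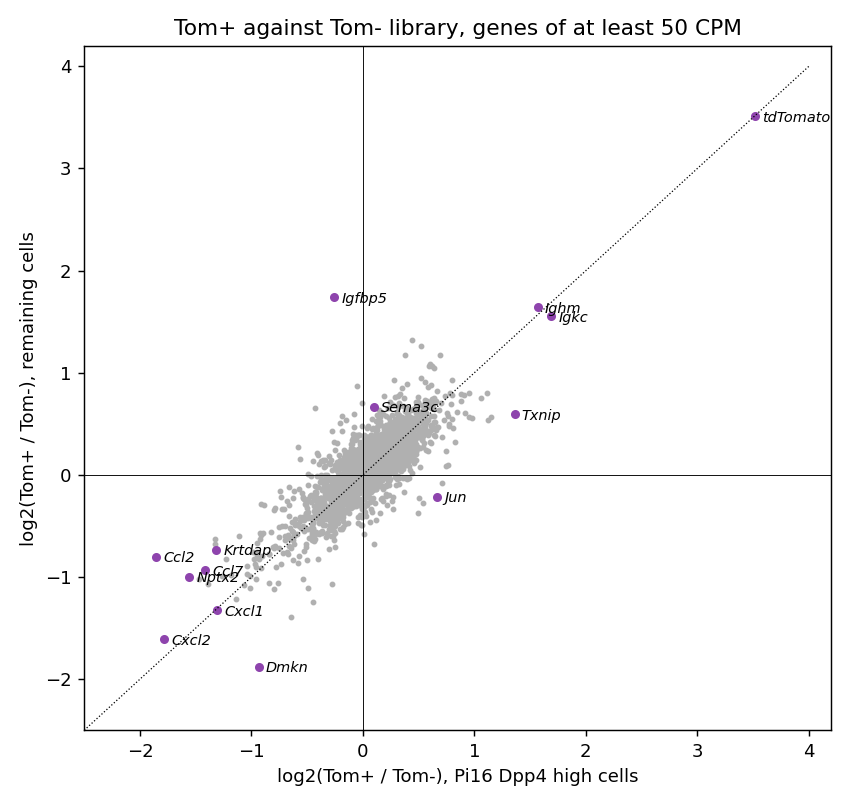
Log2 ratio of Tom+ to Tom- in the Pi16 Dpp4 high cells (x axis) and in the remaining cells (y axis), with a dotted line of equality. Each point is 1 gene that averaged at least 50 CPM over the Pi16 Dpp4 high cells of both libraries. tdTomato (3.52 and 3.51) and Cxcl1 (-1.31 and -1.33) lie on the line, Ccl2 (-1.85 and -0.80) and Igfbp5 (-0.26 and 1.74) off it.

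Some genes differed between the populations in the Pi16 Dpp4 high cells otherwise than in the remaining cells, and these were named after their values were seen. Igfbp5 was at 614 CPM (Tom+) and 733 CPM (Tom-) Pi16 Dpp4 high cells (log2 -0.26), but at 112 and 33.5 CPM in the remaining cells (1.74), and the interval of the difference between these ratios was -2.10 to -1.89. The remaining cells near the threshold did not share the higher Igfbp5 level of Tom+ to that extent: cells without a Pi16 or Dpp4 UMI were at 109 CPM (Tom+) and 21.5 CPM (Tom-), and cells with 6 to 9 UMIs at 134 and 99.7 CPM. Jun, an AP-1 subunit and immediate early gene, was at 2114 and 1334 CPM in the Pi16 Dpp4 high cells (0.66, 0.62 to 0.71) and at 2759 and 3203 CPM in the remaining cells (-0.22). Among the 23 immediate early genes, 2 were at least 1.5-fold higher and 3 at least 1.5-fold lower in Tom+ Pi16 Dpp4 high cells (0 and 4 in the remaining cells), beside 5.71% and 3.06% over all genes (5.2% and 2.3% in the remaining cells), with median log2 ratios of 0.05 and -0.30. These intervals cover counting error and not the difference between libraries.

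Markers of other cell types were summed in the same cells. Mesothelial genes (12 listed, 2 of at least 10 CPM) came to 218 CPM in Tom+ and 343 CPM in Tom- Pi16 Dpp4 high cells, against 207 and 380 CPM in the remaining cells, most of it Wt1, a gene also expressed by visceral adipose progenitors. Leukocyte genes (11 listed, 6 of at least 10 CPM) came to 539 and 181 CPM, against 883 and 321 CPM, most of it Igkc. Igkc was higher in Tom+ of both cell groups, and its part in the Tom+ to Tom- differences was not tested. Mural genes (8 listed, 5 of at least 10 CPM) came to 45.6 and 93.4 CPM, against 177 and 199 CPM, most of it Des. Endothelial genes (8 listed, 0 of at least 10 CPM) came to 1.84 and 4.04 CPM, most of it Pecam1, with Cldn5 at 0 in the Pi16 Dpp4 high cells of both libraries.

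Mature adipocyte genes (6 listed, 0 of at least 10 CPM) came to 0.230 CPM in Tom+ and 0.808 CPM in Tom- Pi16 Dpp4 high cells, most of it Plin1, and Adipoq, Cidec and Lep were at 0. Epithelial genes (10 listed, 1 of at least 10 CPM) came to 35.2 and 37.8 CPM, against 18.8 and 18.5 CPM, most of it Krt10. The keratinocyte genes Krt5, Krt1 and Trp63 and the epithelial genes Cdh1 and Cldn4 were at 0 in the same cells that held Krtdap, Sbsn and Dmkn.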

How the data were processed

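Male mice of 18 months gave 2 libraries, Tom+ and Tom-, with 1 library per group. The deposited files hold raw UMI counts per gene and barcode, which the authors made with Cell Ranger 3.0.2 on mm10 per the submitters' processing notes. No per-cell annotation was used here. The authors' stated limits on genes per cell were applied, and no doublet caller was run; cells above the 95th percentile of UMIs were left out as an alternative. UMIs were summed per library and cell group and divided by the total to give CPM. Ratios were taken for genes of at least 10 CPM on average. Poisson, Clopper-Pearson and conditional binomial intervals are exact and at 95% confidence, and no test was made. The interval code was tested on simulated data. Genes were named as given markers or as members of lists. Others were the 12 highest and lowest by the ratio nearer 0 of the 2 libraries (10 for Tom+ against Tom-). These had 50 CPM or more, averaged over the libraries, and kept their sign under equal cell weights and median-of-ratios scaling. Any further names are said to be chosen after their values were seen. The cells and lists were chosen with earlier results of these data known. Alternatives changed the UMI threshold, depth, mitochondrial limit, shared barcodes, CPM minimum, scaling, cell weights and remaining cells. Symbols were those of the files (35 symbols occur more than once). Apart from shares of summed UMIs or CPM, 3′ counts were not compared between genes. The tools were pandas 2.3.3, scikit-learn 1.9.0, scipy 1.17.1, numpy 2.4.6 and matplotlib 3.10.9 under Python 3.11.15.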

Additional observations from a re-analysis of the deposited data

Results flagged for a closer look

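Among the genes named or listed here, Igfbp5, Jun, Fos and Hspa1b stood out for a Tom+ to Tom- ratio of opposite sign in the Pi16 Dpp4 high cells and in the remaining cells, with counting intervals clear of 0 in both. They are not all such genes of the lists or the table, and the difference was not tested because each population gave 1 library. Sparcl1, of the committed preadipocyte list, was at 0.71 in the Pi16 Dpp4 high cells and -0.08 in the remaining cells. The log2 ratio of Igfbp5 was -0.26 in the Pi16 Dpp4 high cells and 1.74 in the remaining cells. Over the alternatives the value in the Pi16 Dpp4 high cells ran from -0.40 to 0.08, so its sign was not stable. Jun was at 0.66 in the Pi16 Dpp4 high cells and -0.22 in the remaining cells, Fos at 0.21 and -0.19, and the heat shock gene Hspa1b at 0.50 and -0.23. Jun stayed between 0.49 and 0.67 in the Pi16 Dpp4 high cells over the alternatives, and Fos and Hspa1b kept their sign there. All 3 are genes that dissociation is known to induce, and its part was not tested.

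Of the cells that passed the limits on genes and mitochondrial UMIs but not the rest of the gate, 49 in Tom+ and 205 in Tom- also reached the threshold of Pi16 and Dpp4. Of the barcodes that failed those limits, 26 and 20 did. Of the 49 and 205 cells, 48 and 201 were outside for their mesothelial UMIs. Pi16 gave 15.1% of their Pi16 and Dpp4 UMIs in Tom+ and 15.97% in Tom-, against 80.5% and 86.1% in the Pi16 Dpp4 high cells, so they reached it mainly through Dpp4.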

How the results depend on the processing

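No paired analysis was possible because each group held 1 library. The share of Pi16 Dpp4 high cells depended most on the threshold. It was 15.6% in Tom+ and 15.9% in Tom- at 5 UMIs, 3.75% and 5.16% at 20 UMIs, 5.89% and 7.90% for at least 0.1% of a cell's UMIs, and 4.66% and 6.71% after thinning. With a mitochondrial limit of 5% it was 10.4% in Tom+ and 10.3% in Tom-. The number of genes at least 2-fold higher (206) or lower (197) depended on the CPM minimum. It was 99 and 69 at 50 CPM, and 461 were lower at 2 CPM; the other alternatives gave 172 to 309 and 148 to 257. For Tom+ against Tom- Pi16 Dpp4 high cells, 843 genes were at least 1.5-fold higher and 515 lower after thinning, 1179 and 622 at 2 CPM, and 75 and 95 at 50 CPM. Median-of-ratios scaling gave 246 higher and 366 lower and moved the median log2 ratio of all genes from 0.09 to -0.02. Of the ratios of single genes, Cxcl2 in Tom+ against Tom- changed sign, to 0.11, when cells were thinned and chosen again on the thinned counts. Lyz2 changed sign in Tom+, to 0.062, when cells of other types were left out of the remaining cells, an alternative chosen after seeing the data. In that alternative 203 genes were at least 2-fold higher, of which 201 were among the 206, and 183 lower, of which 181 were among the 197. The other single-gene ratios that were past the fold thresholds kept their sign. Over all genes named and all settings, 325 of the values for Tom+ against Tom- and 965 of those against the remaining cells moved beyond the counting interval. Krtdap in Tom+ against Tom- ran from -1.43 to -0.82 and Ccl2 from -1.97 to -1.14. With barcodes listed in both libraries left out, 213 genes were at least 2-fold higher and 212 lower, and 424 and 273 at least 1.5-fold higher and lower in Tom+. Genes with few UMIs, such as Cd36, Mcpt4, Pparg and Cdkn2a, are limited by depth.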
